A study of Mus musculus with 8 samples.

Results

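SAGA, ATAC and TFIID are multi-subunit complexes that act at promoters. Histone H3 lysine 9 acetylation (H3K9ac) was examined at the genes that encode 35 of their subunits. The genes were taken from a list of complex members, and all 35 matched 1 gene each among 21883 protein-coding genes. They fall into 5 groups: 6 genes of the acetyltransferase module, 10 of the SAGA core, 3 for Trrap and the splicing factors of SAGA, 6 of ATAC only and 10 of TFIID only. A gene counted as having a peak in a library if a listed peak overlapped a window reaching 1 kb to both sides of the start or the end of the gene (build mm10).

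SAGA and ATAC are coactivators that acetylate histone H3, with Kat2a or Kat2b as the shared enzyme. TFIID contains the TATA-binding protein and its associated factors (TAFs) and recognises core promoters, and several TAFs also belong to SAGA. Ataxin-7, whose glutamine tract is expanded in spinocerebellar ataxia type 7 (SCA7), is a SAGA subunit that holds the deubiquitinase module to the complex, so these genes encode the partners of the mutant protein and enzymes that write the mark profiled here.

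H3K9ac was immunoprecipitated from whole cerebella. The 266Q group held 4 libraries of symptomatic mice that were heterozygous for a knock-in allele, labelled as carrying 266 glutamines, and the wild type group held 4 libraries of littermates. All were of the C57BL/6 strain at an age of 9 weeks, and the allele is a knock-in rather than a transgene driven by a cell-type promoter. The labels do not say whether each replicate is a separate animal or a pool, so tests measure the spread between libraries, which may be technical. The series asks how this mark differs in symptomatic cerebellum.

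Replicates 1 and 2 of both genotypes stood apart from replicates 3 and 4. Replicates 1 and 2 were lists of 7735 to 11409 peaks with median widths of 1065 to 1246 bp, and replicates 3 and 4 were lists of 1266 to 5571 peaks with median widths of 132 to 148 bp. Read depth is unknown, because the lists hold no read counts. As a check of the tissue, peaks marked 10 and 9 of 10 granule neuron genes in 266Q replicates 1 and 2, against 10 and 7 in wild type. They marked 3 and 4 of 10 Purkinje neuron genes in 266Q, against 2 and 4 in wild type, and at most 1 of 4 oligodendrocyte genes. The 4 genes listed for each of astrocytes, microglia and other tissues lacked a peak in every library. In whole cerebellum, fewer cells with the mark and less mark per cell cannot be told apart.

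Most subunit genes carried H3K9ac in replicates 1 and 2 of both genotypes. In 266Q replicates 1 to 4 a peak was listed at 25, 26, 8 and 0 of the 35 genes, against 22, 21, 1 and 0 in wild type replicates 1 to 4. The corresponding shares of all protein-coding genes were 39.1%, 36.2%, 10.4% and 0.891% in 266Q and 31.9%, 27.8%, 5.43% and 1.46% in wild type. The 266Q mean was 42.1 ± 36.7% of the subunits and the wild type mean 31.4 ± 34.7% (SD, n = 4 each). Within replicates 1 and 2 the mean was 72.9% in 266Q and 61.4% in wild type, beside 37.7% and 29.8% of all genes in the same libraries. Altogether 29 subunit genes were detected at least once, 19 had a peak in all of replicates 1 and 2, and 6 had none.

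**Figure D1:**
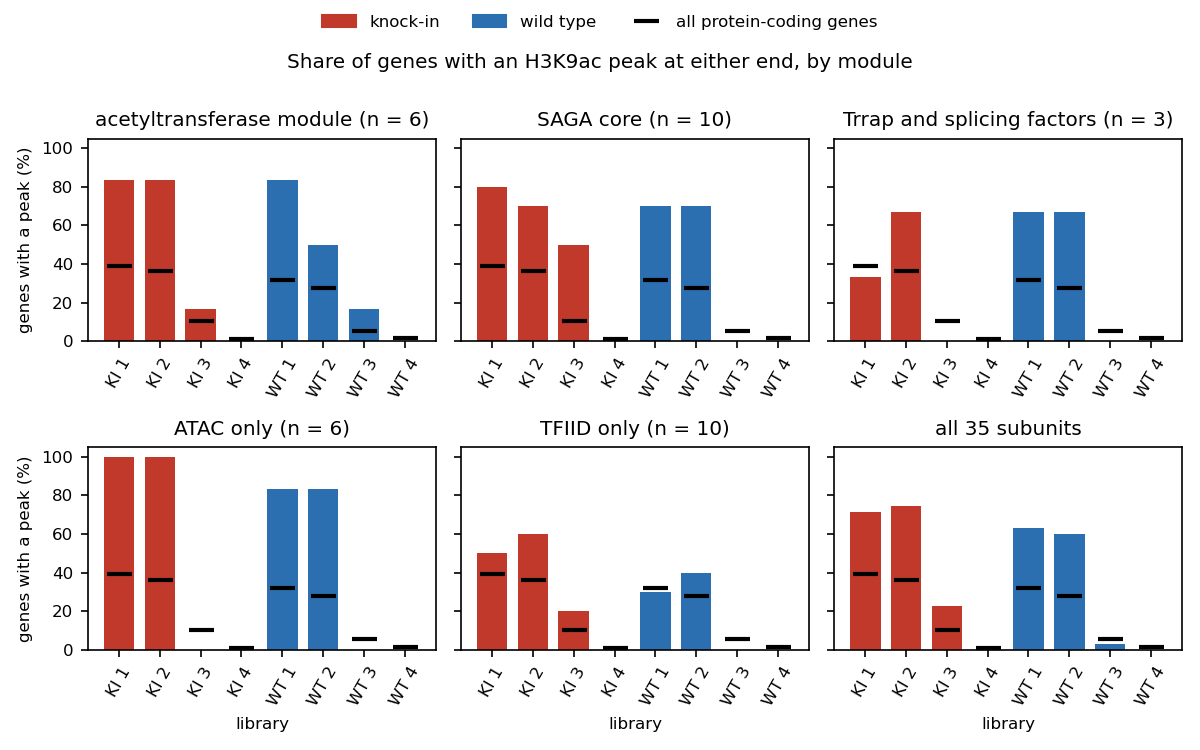
Share of the genes of each group with an H3K9ac peak at either end (vertical axis, percent) in each library (horizontal axis, KI for 266Q knock-in and WT for wild type). Bars are the subunits and black ticks are all protein-coding genes of the same library. The ATAC bars reach 100% in knock-in replicates 1 and 2 and 83.3% in wild type replicates 1 and 2, and in wild type replicate 1 the TFIID bar lies just below its tick.

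No subunit gene was called as detected differently between genotypes. A conditional exact test, which allows each library its own odds of listing a peak, was run over 9822 genes and adjusted over all of them by Benjamini-Hochberg. It called 0 genes at an adjusted p under 0.05 (0% of those tested), while 90 genes, none of them a subunit, had an unadjusted p under 0.05. Fisher's exact test called 0 genes and gave 0 unadjusted p below 0.05, the smallest being 0.143. The smallest conditional exact p of a subunit was 0.198, for Sf3b3. By count of libraries, 15 of the 29 detected subunits had a peak in more 266Q libraries, beside 48% of all detected genes, and 2, Kat2a and Sf3b3, in more wild type libraries, beside 11.6%. The other 12 had a peak in as many libraries of each genotype.

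**Figure D2:**
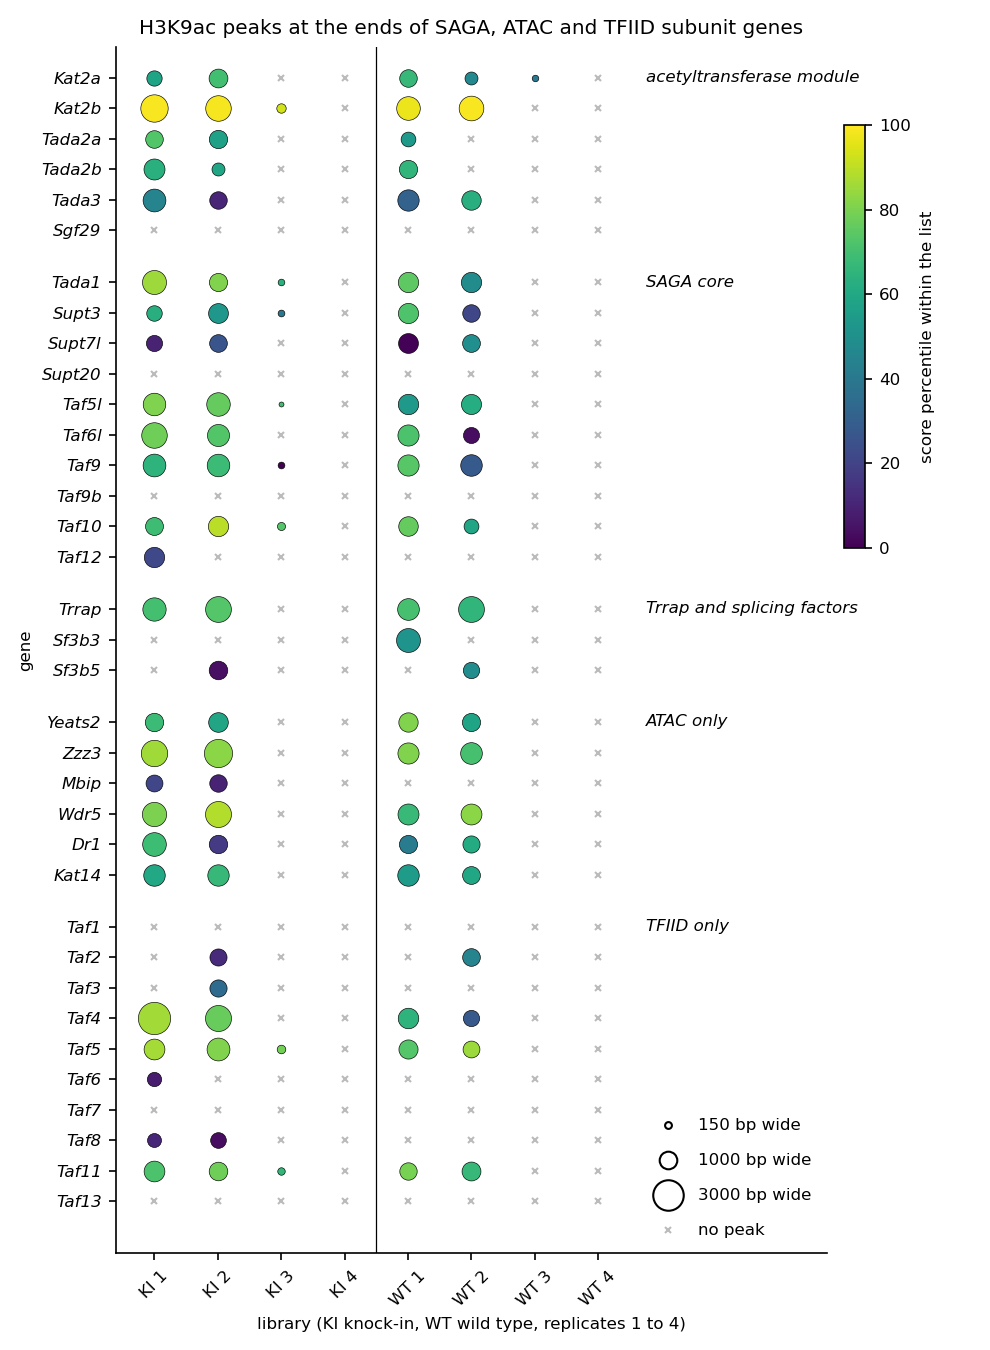
Peaks at each subunit gene (rows) in each library (columns, knock-in left of wild type). Circle area is the width of the widest peak, with crosses where no peak was listed. Colour is the highest score percentile within the list among the peaks of the gene. Kat2b has the highest percentiles in its group, and 8 genes have small circles in knock-in replicate 3 against 1, Kat2a, in wild type replicate 3.

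The acetyltransferase module was marked at 5 of its 6 genes in 266Q replicates 1 and 2, against 5 and 3 in wild type replicates 1 and 2. Kat2a, which encodes the enzyme also called GCN5, lies on chromosome 11 at 100704746 to 100712485. Its peak was 756 and 1142 bp wide in 266Q replicates 1 and 2, against 993, 542 and 138 bp in wild type replicates 1, 2 and 3. The genotypes overlap in width, and replicates 3 and 4 of 266Q and replicate 4 of wild type had no peak. The peak ranked in the middle of its lists, at score percentiles 58.3 and 69.7 in 266Q replicates 1 and 2, against 67.1, 47.1 and 39.8 in wild type replicates 1 to 3 (100 is the highest score of a list). The conditional exact p of Kat2a was 0.223, with an adjusted p of 1.

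Kat2b, the paralogue also called PCAF, had the highest-ranked and, on average, the widest peaks of the subunits. The gene lies on chromosome 17 at 53566774 to 53672721. Its peak was 2416, 2102 and 286 bp wide in 266Q replicates 1 to 3, against 1797 and 1961 bp in wild type replicates 1 and 2. Both 266Q peaks of replicates 1 and 2 were wider than both wild type peaks, as was so at 36.5% of the 5005 genes with a peak in these 4 lists, where 266Q widths were higher by a median of 0.22 on the log2 scale. Its score percentile was 99.0, 98.5 and 93.3 in 266Q, against 97.3 and 99.0 in wild type, the highest of any subunit in each of these lists. Averaged over replicates 1 and 2 of both genotypes the peak was 2069 bp wide at Kat2b and 858 bp at Kat2a, and no other subunit had a wider mean.

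The promoter sequences of these enzyme genes are shown because both carried peaks over the annotated start while differing in width and rank. They run from 250 bases before to 50 after the start, on the strand of the gene (RefSeq, GRCm38.p6). Kat2a is chr11:100712418-100712717 on the minus strand and Kat2b is chr17:53566721-53567020 on the plus strand. Capitals mark matches, on either strand, to 6 short motifs, none of which contains another: the ETS family, NRF1 and YY1 motifs, the TATA box, the CCAAT box and the GC box.
Kat2a: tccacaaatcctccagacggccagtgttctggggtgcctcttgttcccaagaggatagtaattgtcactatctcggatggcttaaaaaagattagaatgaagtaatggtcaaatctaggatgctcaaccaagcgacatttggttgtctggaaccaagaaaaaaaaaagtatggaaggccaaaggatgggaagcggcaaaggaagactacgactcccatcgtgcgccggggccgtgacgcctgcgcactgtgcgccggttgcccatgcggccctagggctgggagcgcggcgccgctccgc
Kat2b: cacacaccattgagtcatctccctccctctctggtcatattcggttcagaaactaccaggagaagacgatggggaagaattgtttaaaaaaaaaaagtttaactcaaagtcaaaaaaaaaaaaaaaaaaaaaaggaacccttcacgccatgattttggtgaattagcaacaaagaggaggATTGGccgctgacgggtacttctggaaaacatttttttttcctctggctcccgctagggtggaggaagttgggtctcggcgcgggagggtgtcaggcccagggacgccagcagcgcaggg
Kat2a matched none of the motifs in this window, and Kat2b had 1 CCAAT box on the opposite strand. The GC content was 54.3% at Kat2a and 47% at Kat2b, and the observed over expected CpG ratio was 0.864 and 0.672.

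The adaptors of the enzyme were detected less widely. Tada2a, the adaptor of ATAC, had peaks of 998 and 1086 bp in 266Q replicates 1 and 2, against 702 bp in wild type replicate 1. Tada2b, its counterpart in SAGA, had peaks of 1423 and 545 bp in 266Q replicates 1 and 2, against 1081 bp in wild type replicate 1. Both genes were absent from the list of wild type replicate 2, and each had a conditional exact p of 1. Tada3, which joins both complexes, had peaks in replicates 1 and 2 of both genotypes, of 1676 and 988 bp in 266Q and 1471 and 1219 bp in wild type. In 266Q replicate 2 its peak ended 48 bp before the annotated start, on the side of the neighbouring gene Arpc4, and ranked at percentile 10.4. Sgf29, a reader of trimethylated histone H3 tails, had no peak in any library, and the nearest peak to either of its ends was 22234 bp away.

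Within the SAGA core, the mark was listed at 8 and 7 of 10 genes in 266Q replicates 1 and 2, and 7 and 7 in wild type. In 266Q replicate 3 there were 5, namely Tada1, Supt3, Taf5l, Taf9 and Taf10, and in wild type replicate 3 there were 0. The 266Q list of replicate 3 was longer, with 5571 peaks against 3249, and with every list reduced to its 1266 top-scoring peaks, the length of the shortest list, the mean share of core genes was 2.5 percentage points higher in 266Q, against 15 points in the full lists. Of these 5 genes only Taf10 was still listed in any of those equal lists, and its difference remained 25% of libraries. Tada1, Supt3, Taf5l and Taf9 were in no list of either genotype, so their difference of 0 follows from the cut. So short a cut leaves too few core genes to compare the genotypes. In the full lists each of these 5 genes was thus found 3 times in 266Q and 2 times in wild type (conditional exact p of 1).

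Widths are those of the widest peak of a gene, and score percentiles are the highest among its peaks. Tada1 in 266Q replicate 2 and Taf10 in 266Q replicate 3 each listed 2 peaks. Tada1, an adaptor of the core, had peaks of 1856, 1064 and 143 bp in 266Q replicates 1 to 3, against 1324 and 1321 bp in wild type replicates 1 and 2. Supt3, which contains a pair of histone folds, had peaks of 775, 1266 and 148 bp in 266Q, against 1311 and 989 bp in wild type. Taf5l, the SAGA paralogue of Taf5, had peaks of 1637, 1784 and 79 bp in 266Q, against 1338 and 1295 bp in wild type. In replicates 1 and 2 the groups overlap for Tada1 and Supt3, and both 266Q peaks were wider for Taf5l, beside 36.5% of all genes. Taf9 and Taf10 are histone-fold TAFs shared with TFIID. Taf9 had peaks of 1666, 1641 and 147 bp in 266Q replicates 1 to 3, against 1451 and 1496 bp in wild type replicates 1 and 2. Taf10 had peaks of 1034, 1320 and 212 bp in 266Q, against 1229 and 711 bp in wild type. In replicates 1 and 2 both 266Q peaks were wider at Taf9 as well, and the groups overlap at Taf10. The narrow peak of Taf9 in 266Q replicate 3 was among the lowest scores of that list, at percentile 0.0628, whereas those of the other 4 genes lay at percentiles 40.5 to 73.4.

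Other core genes had peaks that lay toward a neighbour or were absent. Supt7l, a core subunit with a histone fold, had a peak in replicates 1 and 2 of both genotypes, of 845 and 1007 bp in 266Q and 1271 and 1016 bp in wild type. Both wild type peaks were wider, beside 4.2% of all genes, and each peak also fell in the window of Slc4a1ap. At Taf6l, the SAGA paralogue of Taf6, the widest peaks lay 10558 bp or more downstream of its start, at the end it shares with Tmem179b. They were 2104 and 1568 bp wide in 266Q and 1443 and 834 bp in wild type. A further peak at the start of Taf6l itself was listed in 266Q replicate 2, with no such peak in the other 7 libraries. Taf12, shared with TFIID, had a peak of 1328 bp in 266Q replicate 1 and no other library. Supt20 and Taf9b, the paralogue of Taf9, had no peak in a gene-end window of any library.

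Trrap, the scaffold that contacts activators, had peaks of 1752 and 2146 bp in 266Q replicates 1 and 2, against 1517 and 2151 bp in wild type replicates 1 and 2. The groups overlap. The splicing factors Sf3b3 and Sf3b5, which also belong to the U2 small nuclear ribonucleoprotein, were detected in few libraries. Sf3b3 had a peak of 1844 bp in wild type replicate 1 alone, in a window shared with Cog4. Sf3b5 had peaks of 1115 bp in 266Q replicate 2, against 862 bp in wild type replicate 2.

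ATAC-only genes were the most completely detected group in replicates 1 and 2, with 6 and 6 of 6 genes in 266Q and 5 and 5 in wild type. None had a peak in replicates 3 and 4 of either genotype. Zzz3, which binds the tail of histone H3, had the widest mean peak of this group, at 2249 and 2565 bp in 266Q, against 1443 and 1515 bp in wild type. Wdr5, a WD-repeat protein also found in histone methyltransferase complexes, had peaks of 1897 and 2176 bp in 266Q, against 1423 and 1411 bp in wild type. Dr1, a subunit of the negative cofactor that binds the TATA-binding protein, had peaks of 1805 and 1100 bp in 266Q, against 1069 and 949 bp in wild type. For these 3 of the 5 ATAC genes with a peak in all 4 lists, both 266Q peaks were wider than both wild type peaks, beside 36.5% of all genes.

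Yeats2, a reader of acylated histone tails, and Kat14, an acetyltransferase of ATAC, overlapped between genotypes. Yeats2 had peaks of 1098 and 1242 bp in 266Q, against 1204 and 1068 bp in wild type. Kat14 had peaks of 1489 and 1475 bp in 266Q, against 1487 and 1023 bp in wild type, in a window shared with Pet117. Mbip was the gene that broke the ATAC pattern, with peaks of 922 and 984 bp in 266Q replicates 1 and 2 and none in wild type. Its peaks ranked low, at percentiles 20.7 and 9.39, and the conditional exact p was 0.501.

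By gene-end windows in replicates 1 and 2, TFIID-only genes were detected closer to the share of all genes than the module, core and ATAC genes were. At listed starts this order failed in 266Q replicate 2, where the TFIID share exceeded that of the SAGA core. It held in the other lists of replicates 1 and 2. Peaks were listed at 5 and 6 of 10 genes in 266Q replicates 1 and 2, against 3 and 4 in wild type, which are 50% and 60% against 30% and 40%. All protein-coding genes had 39.1% and 36.2% in these 266Q lists and 31.9% and 27.8% in these wild type lists. Only Taf4, Taf5 and Taf11 had a peak in all of replicates 1 and 2. Taf5, a WD-repeat scaffold, had peaks of 1395, 1683 and 238 bp in 266Q replicates 1 to 3, against 1181 and 915 bp in wild type replicates 1 and 2. Taf11, a histone-fold TAF, had peaks of 1388, 1117 and 181 bp in 266Q, against 975 and 1152 bp in wild type. Taf5 and Taf11 each listed 2 peaks in 266Q replicate 3. Both 266Q peaks of replicates 1 and 2 were wider at Taf5, beside 36.5% of all genes, and the groups overlap at Taf11.

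Taf4, a scaffold of TFIID, had the widest peak of any subunit in 266Q replicate 1. Its widest peak was 3361 and 2182 bp in 266Q, against 1356 and 851 bp in wild type. These widest peaks reached 1766 and 828 bp past the start in 266Q, and 198 and 268 bp in wild type. 266Q replicate 2 and wild type replicate 1 each listed a further peak at the gene ends of Taf4. Those further peaks are left out of the distances, so the genotypes cannot be compared in full reach. With all peaks of the window summed the widths were 3361 and 3076 bp in 266Q and 2076 and 851 bp in wild type.

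Taf8, which pairs with Taf10, had peaks of 629 and 795 bp in 266Q replicates 1 and 2 and none in wild type, at percentiles 10.5 and 3.46, with a conditional exact p of 0.501. Mbip and Taf8 were the 2 subunits in both 266Q and neither wild type list of replicates 1 and 2, beside 7.48% of all detected genes. No subunit showed the reverse, beside 0.396% of all detected genes. Taf2, which contacts the initiator element, had peaks of 943 bp in 266Q replicate 2, against 1006 bp in wild type replicate 2. Taf3, a reader of methylated histone H3, had 1 of 954 bp in 266Q replicate 2. Taf6 had the narrowest mean peak of the subunits, 660 bp in 266Q replicate 1 alone, in a window shared with Cnpy4. Taf1, Taf7 and Taf13 had no peak in a gene-end window of any library.

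The promoters of Taf5 and Taf13 are shown because the one was listed in 5 libraries and the other in 0. Taf5 is chr19:47067498-47067797 and Taf13 is chr3:108571449-108571748, both on the plus strand (RefSeq, GRCm38.p6), with the same motifs in capitals.
Taf5: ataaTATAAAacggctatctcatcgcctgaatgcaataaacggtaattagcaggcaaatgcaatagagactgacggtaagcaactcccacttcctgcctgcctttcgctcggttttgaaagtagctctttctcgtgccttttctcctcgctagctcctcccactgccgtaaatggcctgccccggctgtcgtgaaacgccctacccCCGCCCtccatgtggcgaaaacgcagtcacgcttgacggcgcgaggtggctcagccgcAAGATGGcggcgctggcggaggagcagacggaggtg
Taf13: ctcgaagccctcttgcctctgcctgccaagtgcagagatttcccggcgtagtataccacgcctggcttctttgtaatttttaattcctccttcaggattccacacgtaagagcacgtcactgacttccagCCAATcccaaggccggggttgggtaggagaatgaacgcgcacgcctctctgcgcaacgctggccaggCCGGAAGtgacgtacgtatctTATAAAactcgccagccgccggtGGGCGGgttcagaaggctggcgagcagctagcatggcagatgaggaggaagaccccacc
Taf5 matched the letters TATAAA at the far upstream end of the window, away from the start, and a GC box and the YY1 motif nearer to it. Taf13 matched a CCAAT box, the ETS motif, TATAAA and a GC box, the last 3 in the part of the window next to the start. The CpG ratio was 1.01 at Taf5 and 0.812 at Taf13, and the GC content 56.3% and 57.3%.

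Across the 31 subunits with a listed promoter, the median CpG ratio lay above that of all detected genes, both for subunits with a gene-end peak and for those without. The median observed over expected CpG ratio was 0.885 at the 26 subunits with a peak and 0.812 at the 5 without, within a range of 0.795 to 0.876 for those 5. Over all genes the median ratio was 0.804 at 7901 genes with a gene-end peak and 0.271 at 9590 genes without. The GC box, searched as GGGCGG, was present in 22 subunit promoters (71%), beside 46.3% of all 17491 promoters of the same length. The ETS family motif, searched as CCGGAAG, was present in 10 (32.3%), beside 11.9% of all promoters. For the YY1 motif, searched as AAGATGG, the count was 6 (19.4%), beside 6.35% of all, and for the NRF1 motif it was 5 (16.1%), beside 6.66%. The CCAAT box was present in 10 (32.3%), beside 39.2% of all promoters. The TATA box, searched as TATAAA anywhere in the window, was present in 3 (9.68%), beside 13.3%. Of the 31 subunits 26 had a gene-end peak, beside 7901 of the 17491 genes. Motifs were not counted among detected genes alone, so these shares cannot set subunits apart from detected genes. Of the 5 subunits without a gene-end peak, 4 held a GC box and 0 the NRF1 motif.

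**Figure D3:**
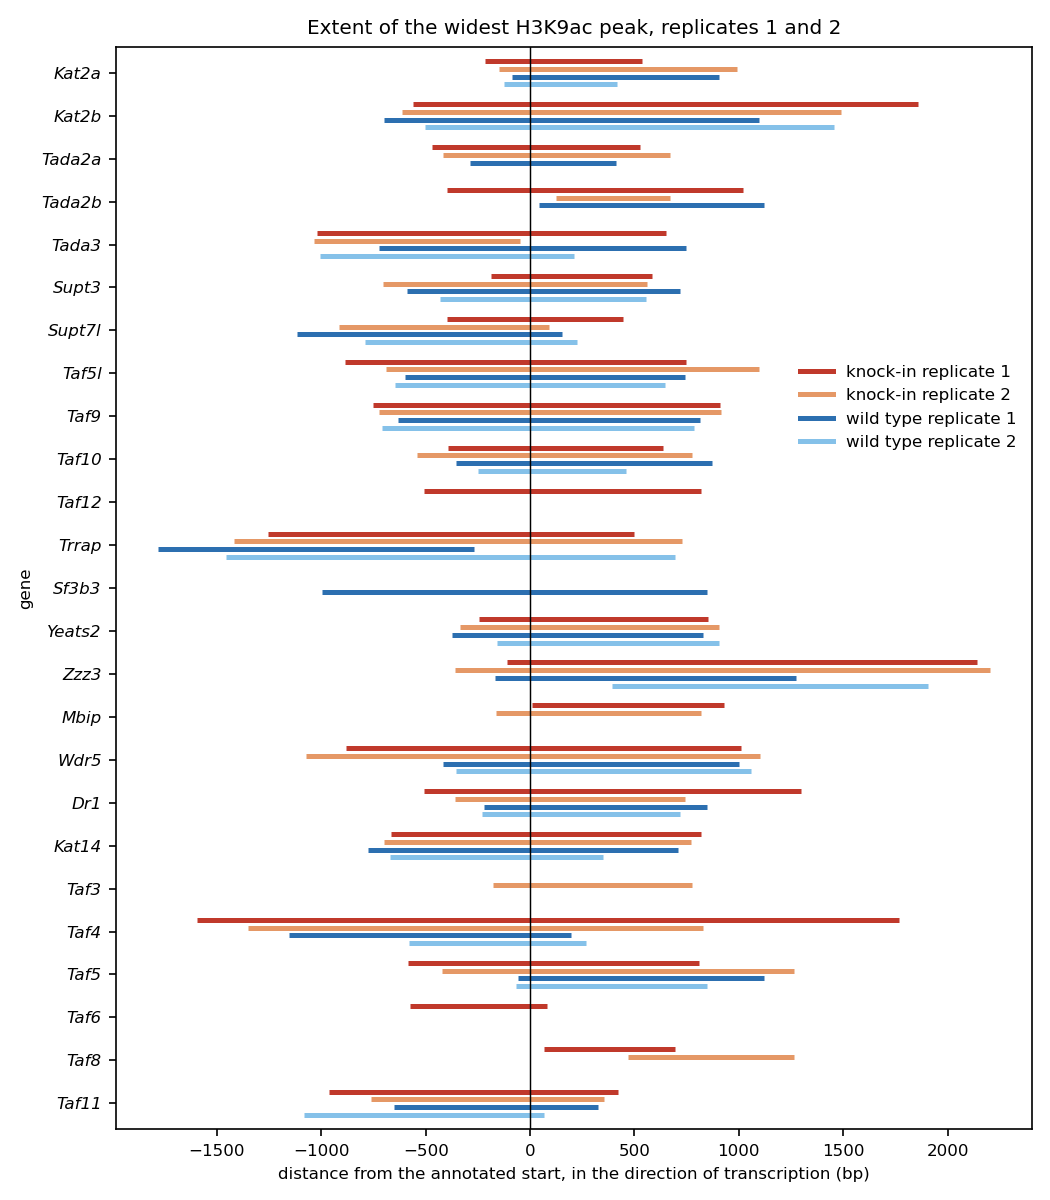
Extent of the widest peak in replicates 1 and 2 around the annotated start of each subunit (horizontal axis, bp, positive in the direction of transcription; rows, genes). Each line is 1 library. Taf6l, whose widest peaks lie over 10 kb downstream, and genes with no listed start are left out. Most lines cross 0, and the Taf4 lines of wild type end at 198 and 268 bp. Further peaks of a gene are not drawn.

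Subunit peaks of replicates 1 and 2 lay over the start of transcription and extended further into the gene than away from it. Of 86 such peaks with a known start, 74 covered it. Relative to the start, the median edges were at -508.5 bp and 798.5 bp. By library the median downstream edge was at 814.5 and 820 bp in 266Q replicates 1 and 2, against 830 and 669.5 bp in wild type replicates 1 and 2. In replicate 3 the widest peak of each gene was placed. Of 8 genes with a known start, the peak of Taf9 covered it, and peaks this narrow can cover fewer starts. At Kat2b, Supt3, Taf5l, Taf10 and Taf5 in 266Q and Kat2a in wild type they lay wholly within 16 to 466 bp after the start, and at Taf11 wholly before it.

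All 8 subunit genes listed in 266Q replicate 3 were among the 19 with a peak in all of replicates 1 and 2, and so was Kat2a, the 1 listed in wild type replicate 3. The same held for 2085 of the 2273 genes of any kind listed in 266Q replicate 3. In wild type replicate 3 it held for 1110 of 1188. Taken the other way, 8 of the 19 subunits were listed in 266Q replicate 3 and 1 in wild type replicate 3. Of the 5005 genes of any kind with a peak in all of replicates 1 and 2, the shares were 41.7% and 22.2%.

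Peaks of 12 subunits also fell in the window of another protein-coding gene, so the mark cannot be assigned to the subunit alone. These 12 are 41.4% of the 29 detected subunits, beside 30.7% of all detected genes. They were Tada2a (Acaca), Tada2b (Ccdc96), Tada3 (Arpc4), Supt7l (Slc4a1ap), Taf5l (Urb2), Taf6l (Tmem179b), Taf9 (Ak6 and Rad17), Taf10 (Ilk and Tpp1), Sf3b3 (Cog4), Kat14 (Pet117), Taf6 (Cnpy4) and Taf11 (Anks1).

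The window at gene ends missed annotated starts inside genes. With windows at the listed starts instead, 23, 24, 7 and 0 of 31 subunits had a peak in 266Q replicates 1 to 4, against 20, 18, 1 and 0 in wild type replicates 1 to 4. The shares of all 17491 genes with a listed start were 40.7%, 37.5%, 11.6% and 0.966% in 266Q and 33.1%, 29.3%, 5.99% and 1.60% in wild type. Taf1, the largest TAF, then gained a peak of 1021 bp in 266Q replicate 2, at chrX:101532411-101533431 over its listed start and 4839 bp inside the gene end. Taf9b gained a peak of 710 bp in wild type replicate 2, which lay 143 bp from a listed start. Both genes are on the X chromosome, where 22.2% of 966 genes had a gene-end peak in any library, beside 46.6% of 20661 autosomal genes.

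No subunit was called as differing in peak width between genotypes in replicates 1 and 2. The widths were compared with limma on the log2 scale, each library centred on its median over the 5005 genes with a peak in all 4 lists. The fit called 0 genes (0% of those tested) at an adjusted p under 0.05, while 282 genes, Taf4 alone of the subunits, had an unadjusted p under 0.05. Without centring, 266Q peaks were wider by a median of 0.22 on the log2 scale over all genes and 0.26 over the 19 subunits tested, and the differences given next are relative to the library medians. The median centred difference was 0.03 over the 19 subunits, with a range of -0.53 to 1.10, and -0.01 over all genes. By group it was 0.33 for 3 TFIID genes, 0.25 for 5 ATAC genes, 0.03 for 3 acetyltransferase module genes and -0.07 for 7 SAGA core genes, and Trrap was at -0.13.

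In uncentred widths, both 266Q peaks exceeded both wild type peaks at 9 of the 19 subunits, beside 36.5% of all genes. The reverse held at 1 subunit, Supt7l, beside 4.2% of all genes. Taf4 had a centred log2 difference of 1.10 (SE 0.28), with an unadjusted limma p of 0.00353 and an adjusted p of 0.870. Zzz3 had 0.47 (SE 0.25) and Supt7l -0.53 (SE 0.24), each with an adjusted limma p of 0.873. The enzymes differed by less than their errors, Kat2a by 0.11 (SE 0.31, adjusted limma p 0.974) and Kat2b by 0.03 (SE 0.25, adjusted limma p 0.997).

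**Figure D4:**
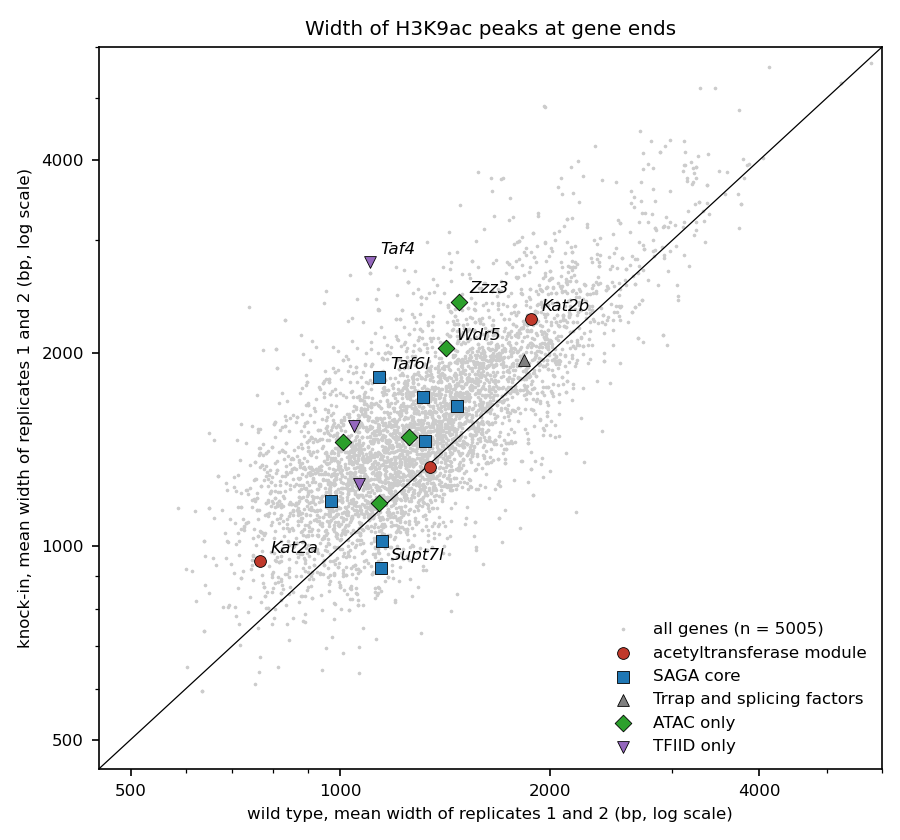
Mean peak width of replicates 1 and 2 in knock-in (vertical axis, bp, log scale) against wild type (horizontal axis, bp, log scale). Grey points are all genes with a peak in all 4 lists, of which 7 lie outside the axes, coloured symbols are the 19 subunits and the line marks equal width. Most points lie above the line, with Taf4 farthest above it and Supt7l below it among the subunits.

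Subunit peaks ranked near the middle to upper part of the lists. The median score percentile of detected subunits was 68.7 and 67.6 in 266Q replicates 1 and 2, against 69.0 and 58.6 in wild type replicates 1 and 2. For other detected genes it was 57.5 and 62.2 in 266Q and 65.6 and 57.4 in wild type. The widest range was in wild type replicate 1, where Supt7l ranked at percentile 0.473 and Kat2b at 97.3.

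Among other genes of transcription initiation, 23 general factors and partners of the TATA-binding protein, a peak was listed at 17, 15, 3 and 0 in 266Q replicates 1 to 4, against 11, 8, 1 and 0 in wild type replicates 1 to 4. Of the 18 detected, 12 were in more 266Q libraries, beside 48% of all detected genes, 0 in more wild type libraries, beside 11.6%, and 6 in as many of each, and 0 were called by the conditional exact test. Gtf2e1, Gtf2h2 and Mnat1, which encode parts of TFIIE and TFIIH, were in 266Q replicates 1 and 2 and no wild type library, each with a conditional exact p of 0.501, beside 7.48% of all detected genes in both 266Q and neither wild type list of these replicates. The 5 without a peak, named after their values were seen, were Tbp, the TATA-binding protein gene itself, and Gtf2f2, Ercc3, Cdk7 and Taf7l. In the deubiquitinase module, Atxn7l3 was in 4 266Q and 2 wild type libraries, Usp22 in 3 and 3, Atxn7 in 2 and 2 and Eny2 in 0 and 0. The conditional exact p of Atxn7l3 was 0.0903, with an adjusted p of 1.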

How the data were processed

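H3K9ac ChIP-seq peak lists of 8 libraries, 4 per genotype, were used. Peaks were called with MACS in Galaxy for each library, per the file headers, and Bowtie2 and mm10 are named in the submitters' processing notes. Settings, version and input control of MACS were not given in these sources. The score the authors deposited for each peak, at least 50 in every list, served here only to rank peaks within a list. Depth is unknown. Of 52676 peaks, 15 had a start below 0, set to 0.

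Gene ends and promoters came from RefSeq tables of GRCm38.p6. Detection needed 1 bp of overlap with a window of 1 kb. Detection odds per library came from a Rasch model over all genes, and the conditional exact test was two-sided over genes in 1 to 7 libraries. Widths were fitted with limma 3.58.1, and adjusted p-values are Benjamini-Hochberg over all genes tested, with a threshold of 0.05. Both tests were tried on simulated data. For detection, the changed genes were simulated in all 4 libraries of a genotype and none of the other. No subunit had such a pattern, so the power for the patterns of the subunits was not measured. Alternatives were other windows, overlaps, list cuts, libraries left out, a replicate block, Fisher's exact test and other scalings. Values in every library are given for Kat2a and Kat2b, and for members found in replicates 3 or 4, differing by 2 libraries or found in none, with the widest and narrowest. Other members are named by group. Zzz3, Supt7l and Taf4 in the width comparison, and Taf5 and Kat2b as the promoters shown among genes tied at 5 libraries, were chosen after their values were seen. The members and lists were chosen with earlier results of these data known.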

Additional observations from a re-analysis of the deposited data

How the results depend on the processing

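No subunit was called by either test under any alternative tried, and single libraries moved the counts over all genes. For detection this says little, because no subunit was in a replicate 4 list. In the main test even 3 266Q libraries against 0 wild type libraries did not pass adjustment. Leaving out each library in turn gave 0 to 1 genes called for detection (Lrrc74b, without wild type replicate 2) and 0 to 3 for width (E2f3, Fgf14 and Rnf5 without 266Q replicate 1). A lone library of a genotype was then assumed to vary like the others. Kat2a, at -25 percentage points of libraries in 266Q minus wild type, was at 25 with peaks at or above the median score of each list. Its centred log2 width difference ranged over -0.22 (266Q replicate 2 left out), -0.20 (wild type replicate 2 left out) and 0.44, and that of Kat2b over -0.16 (wild type replicate 1 left out), -0.04 (266Q replicate 1 left out) and 0.23. The median width difference over subunits was 0.26 without centring and 0.23 without wild type replicate 2, against 0.03. The cause was not tested. That of Taf4 was 0.82 to 1.39 when a library was left out, with adjusted p of 0.287 to 1.00 over its alternatives. The share of all subunits detected, 10.7 percentage points higher in 266Q, was 0 to 24.8 points higher when a library was left out, and 1.43 points higher with lists cut to equal length (SAGA core 2.5, acetyltransferase module 4.17, ATAC, TFIID and the Trrap group 0). Mbip and Taf8, at 50% of libraries in the full lists, were in none of those equal lists in either genotype. The same held for every gene of the ATAC and Trrap groups. These values of 0 therefore follow from the cut, which leaves too few subunits to compare the genotypes. With peaks at or above the median score of each list, the share of all subunits was 8.57 points higher in 266Q. By group, 266Q minus wild type was then 17.5 for the SAGA core, 12.5 for the acetyltransferase module and 7.5 for TFIID. It was 0 for ATAC and -8.33 for the Trrap group. Mbip and Taf8 also differed by 0 under this milder cut. Counting only peaks shared with no other gene, an alternative chosen after seeing the data, gave 0 calls. With the replicate number as a block, 0 genes were called for detection and 0 for width. Deviations of same-numbered libraries correlated at 0.05, 0.11, 0.14 and 0.41 for replicates 1 to 4, and pairing needed every value to exceed 0.1. Of the 266Q libraries, replicates 2, 3 and 4 correlated best with their own number and replicate 1 with wild type replicate 2, a hint from the data and not the design. Within replicates 1 and 2 alone, replicate 1 of both genotypes correlated at 0.004, and at -0.05 in log2 width, so the hint does not extend there. An exact permutation of the 4 libraries used for width reaches a p of 0.333 at the least. Without read counts, absence from a list is not absence of the mark.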

Other observations

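Peaks nearest to the undetected subunits Supt20 and Taf13 belonged to the windows of other genes. At Supt20 the nearest peak lay 5347 to 5999 bp beyond a gene end in 266Q replicates 1 to 3 and wild type replicates 1 and 2, in the windows of Alg5 and Exosc8. It was 1992, 1910 and 162 bp wide in 266Q, against 1474 and 1870 bp in wild type. At Taf13 the nearest peak lay 8986 to 9405 bp away in 266Q replicates 1 to 3, at Tmem167b or Wdr47, and 9236 bp away in wild type replicate 2. Taf6, detected in 266Q replicate 1, had its nearest peaks in 266Q replicates 2 and 3 at 6664 and 7051 bp, in the windows of Cnpy4 and Mblac1.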
